A study of Cyprinus carpio with 2 samples.

Results

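The unigenes that carry the symbols wfdc2 and cst3 were described in immature ovary and testis of the common carp, Cyprinus carpio. Cst3 names a secreted protease inhibitor, and wfdc2 a secreted protein with a fold shared with several such inhibitors. Both symbols were chosen by their read values, for being richer in the ovary library than in the testis library. All rows whose gene name begins with either symbol were kept, which gave 24 unigenes of wfdc2 and 5 of cst3, 29 of 22634 unigenes in all. A unigene is a numbered transcript unit of the authors' transcript set, and each carries a deposited protein and gene name. RNA was sequenced in 1 ovary library and 1 testis library, from juvenile fish 110 to 130 days after hatching. The labels name no strain or treatment, and the number of fish behind each library is not given in the sources used here. Since each tissue has 1 library, no difference could be checked in replicates, and no test was run.

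Wfdc2 encodes a small secreted protein with whey acidic protein (WAP) core domains, a fold shared with several inhibitors of serine proteases. In humans its product, HE4, is made by epithelia of the reproductive and respiratory tracts and is used as a serum marker of ovarian cancer. Cst3 encodes cystatin C, a secreted inhibitor of papain-like cysteine proteases such as cathepsins L and S. Cystatins block these enzymes by filling the active site, and in common carp a cystatin has been purified from eggs. The ovary of a juvenile female holds growing oocytes with their follicle cells, and the testis of a juvenile male holds germ cells with Sertoli and Leydig cells.

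The authors scaled the reads of each unigene by a size factor for each library, which leaves even steps in the values. Each step was counted as 1 read, although it could stand for more, and all read numbers below rest on this. The 22634 unigenes held 4311799 ovary reads and 1926860 testis reads. Each has at least 1 read in each library, so a unigene read in only 1 gonad is not among them. Shares, ranks and counts over all reads, unigenes or symbols below refer to these unigenes alone. The value columns carry the letters A and B. Ovary is column A and testis column B by the titles of the authors' lists, so an error in those titles would turn every direction round. As deposited, the ratio of ovary over testis had a median of 1.78 over all unigenes, a log2 ratio of 0.83, and folds below are ovary over testis relative to that median unless a sentence says "as deposited". Brackets hold exact Clopper-Pearson 95% intervals from the reads, which cover counting error only. The labelled tissues were checked against markers. All 25 unigenes of the oocyte markers, such as the egg envelope genes zp2.2 and zp3a.2, lay above the median, while amh, Dmrt1-1 and sox9a, the 3 testis marker unigenes analysed, lay far below it with 17, 2 and 2 ovary reads against 1175, 197 and 51 testis reads. Those 3 are in the authors' testis list, and Unigene_63972 of zp2.2 is in the authors' ovary list, so for these the direction is no independent check.

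The unigenes of wfdc2 together held 24233 ovary reads and 1934 testis reads, and those of cst3 held 98305 ovary reads and 5696 testis reads. Summed over its unigenes, wfdc2 was 9.4-fold (8.97 to 9.85) higher in ovary and cst3 was 12.9-fold (12.6 to 13.3) higher. As deposited the ratios were 16.7 for wfdc2 and 23 for cst3. In deposited values 1 ovary read counts for 2.31 units and 1 testis read for 1.73, although ovary had more reads over the 22634 unigenes. Over these unigenes the deposited scaling thus widens the difference in total reads between the libraries. This holds for every ratio or log2 change given as deposited. Of the reads held by the 22634 unigenes, wfdc2 made up 0.562% in ovary and 0.1% in testis, and cst3 2.28% and 0.296%. By summed reads, which were not divided by transcript length, cst3 took rank 3 in ovary and rank 10 in testis among 9494 symbols. In the same order wfdc2 took rank 11 in ovary and rank 72 in testis, summed over its 24 unigenes. Among all unigenes, the best rank of a single wfdc2 unigene was 65 in ovary and 266 in testis. By summed reads both symbols were thus among the most read of the ovary library while also being read well in testis. In bulk tissue, more cells of a type that makes a transcript and more of the transcript per cell cannot be told apart.

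The direction was not shared by every unigene. At least 4-fold higher in ovary were 20 of 24 wfdc2 unigenes and 3 of 5 cst3 unigenes, and at least 4-fold lower in ovary was 1 unigene of each. Over all unigenes that reached 5 units in the library where they were higher, 12.6% lay at least 4-fold toward ovary and 15.3% at least 4-fold toward testis. All 29 members passed that floor. The members were chosen for this contrast, so these counts describe them and support nothing further. The median score, log2 of (ovary + 1) over (testis + 1) in deposited units relative to all unigenes, was 2.96 over the wfdc2 unigenes and 3.63 over the cst3 unigenes, beside 0 for all unigenes by construction.

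**Figure D1:**
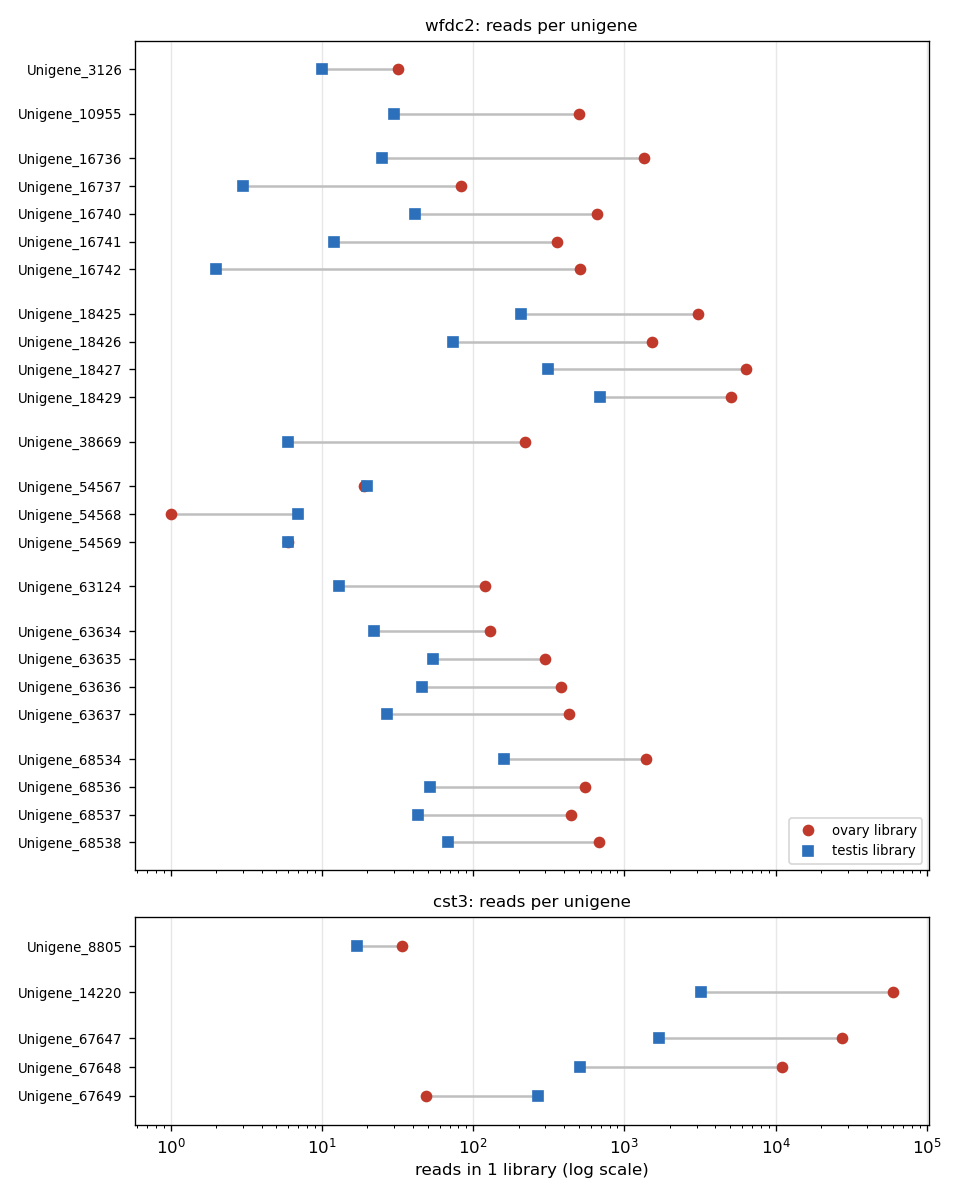
Reads of each wfdc2 unigene (upper panel, 24 rows) and each cst3 unigene (lower panel, 5 rows) in the ovary library (circles) and the testis library (squares), on a log axis, with gaps between runs of neighbouring unigene numbers. Ovary reads lie to the right in most rows, the markers of Unigene_54569 coincide at 6 reads, and the order is turned round in Unigene_54567, Unigene_54568 and Unigene_67649.

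Cst3 rested on 3 very abundant unigenes and had 2 scarce ones. Unigene_14220 held 59594 ovary reads and 3219 testis reads, Unigene_67647 held 27661 and 1683, and Unigene_67648 held 10967 and 508. These took ranks 3, 9 and 33 among all unigenes by ovary reads, and ranks 15, 47 and 455 by testis reads. Their folds were close to each other, at 13.9 (13.4 to 14.4), 12.3 (11.7 to 13) and 16.2 (14.8 to 17.7). The intervals do not overlap, so the 3 ratios differ by more than counting error. Together these unigenes carried 98222 of the 98305 ovary reads of cst3. Such a difference was common among the most abundant unigenes, since 46 of 52 with at least 10000 reads in both libraries together (88.5%) were at least 4-fold higher in ovary. Without Unigene_14220 the summed fold of cst3 was 11.7 (11.3 to 12.2).

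The remaining cst3 unigenes did not share that ratio. Unigene_67649 held 49 ovary reads and 269 testis reads, a fold of 0.137 (0.0986 to 0.186), and was thus higher in testis. It carried 0.0498% of the cst3 reads in ovary and 4.72% of those in testis. Its number follows directly on that of Unigene_67648, and the log2 ratios of the pair were 6.89 apart. Of 11986 pairs with consecutive numbers, 4300 (35.9%) carried a shared symbol. Whether pairs with a shared symbol are pieces, forms or copies of a gene was not tested. Among 1622 such pairs with at least 100 reads in each unigene, the median log2 difference was 0.51, and 2 pairs (0.123%), this pair included, were at least 6.89 apart. Unigene_8805 held 34 ovary reads and 17 testis reads, a fold of 1.5 (0.815 to 2.86), so no difference from the median was detectable at this depth. All 5 rows carry the protein name Cystatin. Near-identical unigenes can divide reads between them, so the value of any 1 of these is uncertain.

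**Figure D2:**
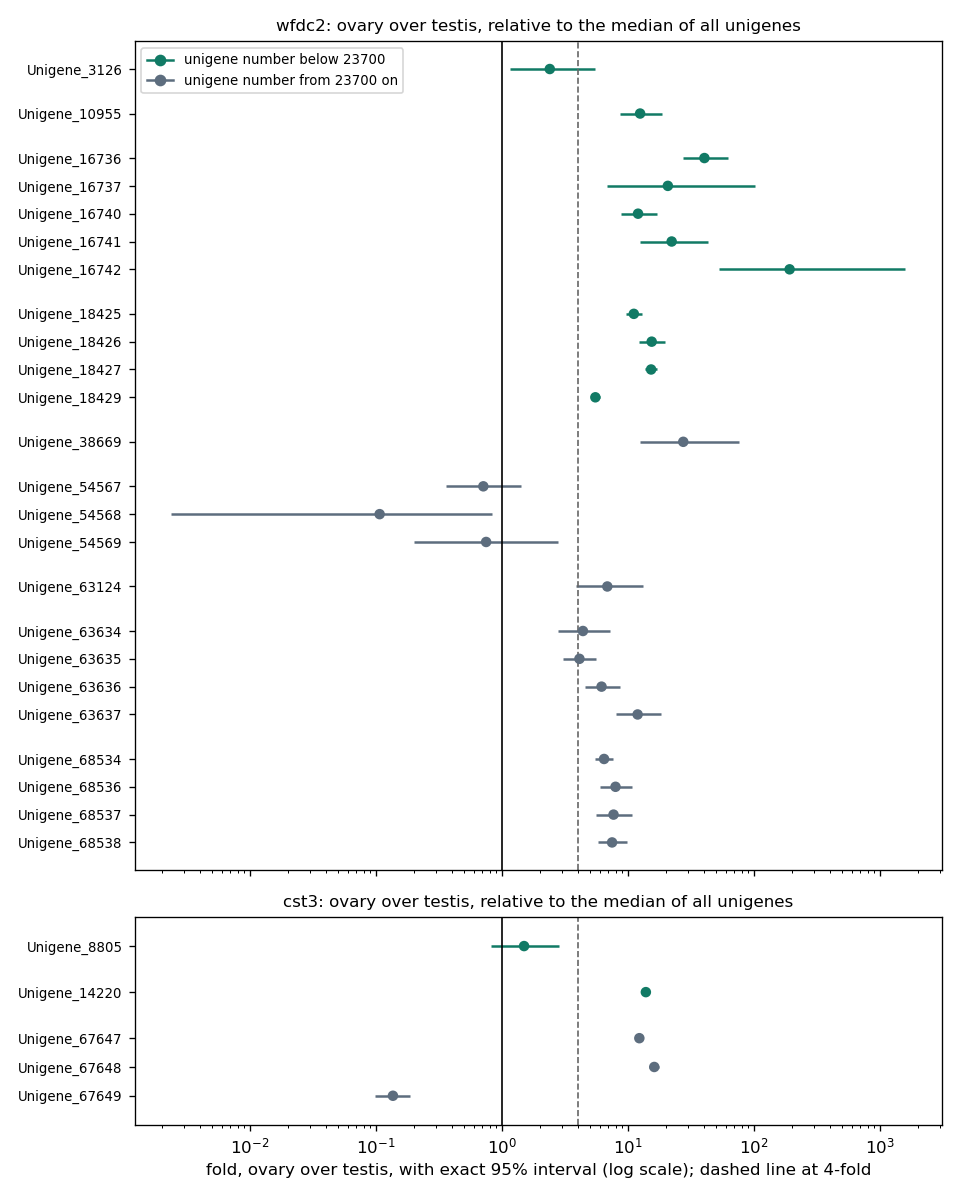
Fold of ovary over testis for each wfdc2 and cst3 unigene, relative to the median of all unigenes (solid line at 1, dashed line at 4), on a log axis, with exact 95% intervals from the reads. Colours mark unigene numbers below and from 23700 on. Most wfdc2 unigenes lie between 4.13 and 40.5, Unigene_16742 lies at 192, and Unigene_67649 of cst3 lies at 0.137, far left of its neighbours.

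Wfdc2 was spread over more unigenes than any other symbol. It had 24, the next symbol had 22, and the median symbol had 2. Across these unigenes the ovary reads ranged from 1 to 6397 with a median of 435.5, and the testis reads from 2 to 691 with a median of 28.5. The unigene numbers fell into 9 runs, in which members follow each other with no other symbol between them. All 24 rows carry the protein name "Uncharacterized protein", so the symbol alone ties them together, and whether they are copies, alleles or pieces of 1 gene was not tested.

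The run from Unigene_18425 to Unigene_18429 carried 66.4% of the wfdc2 ovary reads and 66.5% of the testis reads. Unigene_18427 had the most ovary reads, 6397 against 314 testis reads, a fold of 15.3 (13.6 to 17.2). Unigene_18429 followed with 5084 ovary reads and 691 testis reads, the most of any wfdc2 unigene in testis, and a fold of 5.52 (5.1 to 5.98). Thus the 2 most read wfdc2 unigenes, from neighbouring numbers, differed in their ratio by more than counting error. Unigene_18425 held 3076 ovary reads and 207 testis reads, and Unigene_18426 held 1524 and 74, with folds of 11.1 (9.68 to 12.9) and 15.4 (12.2 to 19.8). The whole run was 9.38-fold (8.86 to 9.93) higher in ovary. The other 20 unigenes summed to 8152 ovary reads and 648 testis reads, or 9.44-fold (8.71 to 10.2), so the summed fold of wfdc2 did not hang on that run.

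The run from Unigene_16736 to Unigene_16742 had the highest fold among the runs with several unigenes. Its 5 unigenes held 2958 ovary reads and 83 testis reads, a fold of 26.7 (21.5 to 33.7). Unigene_16742 held 512 ovary reads and 2 testis reads, a fold of 192 (52.9 to 1590), whose wide interval comes from the 2 testis reads. Unigene_16736 held 1349 ovary reads and 25 testis reads, a fold of 40.5 (27.3 to 62.8). Unigene_16741, with 356 ovary and 12 testis reads, and Unigene_16737, with 83 and 3, were 22.2-fold (12.6 to 43.5) and 20.8-fold (6.86 to 103) higher in ovary. Unigene_16740 had the lowest fold of the run, 12 (8.78 to 16.9), from 658 ovary reads and 41 testis reads.

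The runs from Unigene_63634 and from Unigene_68534 on had smaller summed folds than both runs above. From Unigene_68534 to Unigene_68538 the 4 unigenes held between 441 and 1389 ovary reads and between 43 and 161 testis reads, and their folds lay between 6.47 and 7.98, with overlapping intervals. This run as a whole was 7.09-fold (6.32 to 7.97) higher in ovary, from 3062 ovary reads and 324 testis reads. From Unigene_63634 to Unigene_63637 the 4 unigenes held 129, 297, 379 and 430 ovary reads against 22, 54, 46 and 27 testis reads. Their folds were 4.4 (2.78 to 7.26), 4.13 (3.08 to 5.62), 6.18 (4.54 to 8.59) and 11.9 (8.09 to 18.3). The first 2 of these were the wfdc2 unigenes just inside the 4-fold limit, and their intervals reach below it.

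Of the wfdc2 unigenes that stand alone, Unigene_10955 held 500 ovary reads and 30 testis reads, a fold of 12.5 (8.65 to 18.7). Unigene_38669 held 220 ovary reads and 6 testis reads, a fold of 27.5 (12.4 to 75.8). Unigene_63124 held 119 ovary reads and 13 testis reads, a fold of 6.87 (3.86 to 13.3). Unigene_3126, the unigene just outside the 4-fold limit, held 32 ovary reads and 10 testis reads, a fold of 2.4 (1.15 to 5.47).

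The run from Unigene_54567 to Unigene_54569 did not lie on the ovary side. Unigene_54567 held 19 ovary reads and 20 testis reads, and Unigene_54569 held 6 in each library, with folds of 0.713 (0.36 to 1.41) and 0.75 (0.201 to 2.81). Unigene_54568 held 1 ovary read and 7 testis reads, a fold of 0.107 (0.00238 to 0.834), the single wfdc2 unigene at least 4-fold higher in testis. Summed, the run held 26 ovary reads and 33 testis reads, a fold of 0.591 (0.339 to 1.02), so its reads do not set it apart from the median unigene. With Unigene_3126 these are the 4 wfdc2 unigenes under 100 units in the higher library, and all of the other 20 were at least 4-fold higher in ovary. Among all unigenes the share at least 4-fold higher in ovary was 8.13% for those from 5 to under 100 units and 16.3% from 100 units on.

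Compared within the symbol, wfdc2 unigenes differed from each other by more than counting error. When each was set against the summed fold of the other 23, its interval lay above that value for 7 unigenes, below it for 9 and across it for 8. For cst3 the same comparison gave 2 above, 3 below and 0 across. The standard deviation of the log2 ratio over the 24 wfdc2 unigenes was 2.13, whereas the median was 1.37 over the 94 symbols with at least 10 unigenes, wfdc2 included. Wfdc2 ranked 5 of the 94 by this spread. Low reads add to such a spread. Unigene_3126 and the run from Unigene_54567 to Unigene_54569, 4 scarce unigenes, held 58 ovary reads and 43 testis reads together. With these left out, the standard deviation over the remaining 20 wfdc2 unigenes was 1.29, so the wide spread of wfdc2 rested largely on them. Scarce unigenes of the other symbols were not left out, so 1.29 has no matching median or rank. The part of counting error in the spread was not tested.

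**Figure D3:**
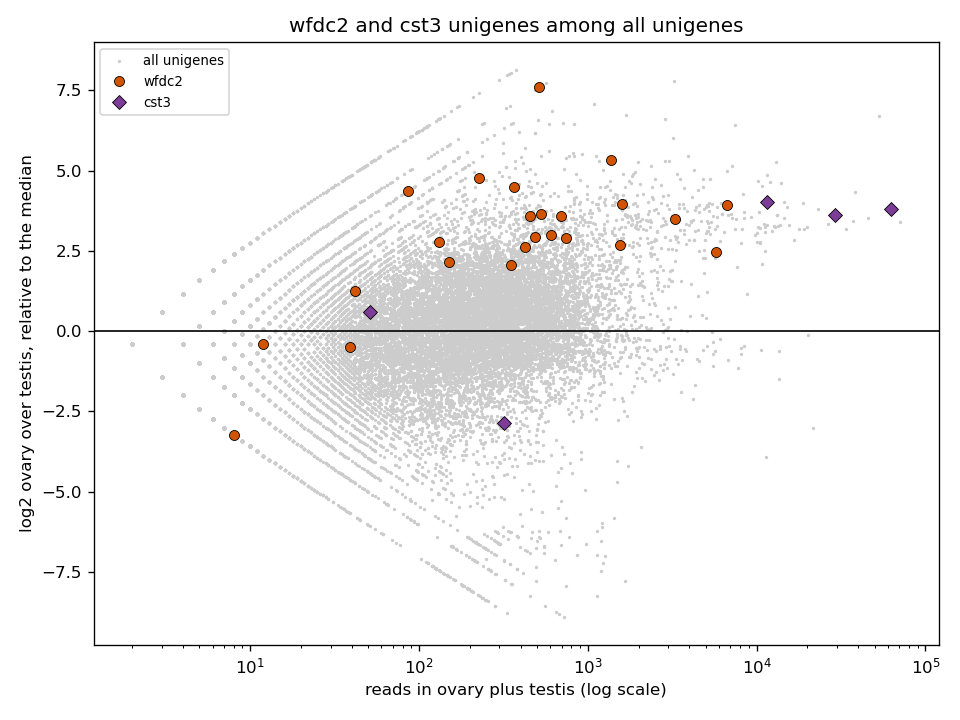
Log2 ratio of ovary over testis, relative to the median of all unigenes, against the reads of both libraries together on a log axis, for all 22634 unigenes (grey points), wfdc2 (circles) and cst3 (diamonds). The 3 abundant cst3 unigenes lie at the right edge between 3.62 and 4.02, where most unigenes are richer in ovary. Among the wfdc2 unigenes with few reads, those from Unigene_54567 to Unigene_54569 lie under 0. Unigene_3126 lies at 1.26 and Unigene_16737 at 4.38.

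Over the whole data set the ratio differed between low and high unigene numbers, and this touches the members. The median log2 ratio as deposited was 1.79 over the 11904 unigenes numbered below 23700 and -0.32 over the 10730 from there on, a limit placed where it divides the log2 ratios best. Below 23700, 10 of 11 wfdc2 unigenes and 1 of 2 cst3 unigenes were at least 4-fold higher in ovary, where 21.9% of all unigenes were. From 23700 on, 10 of 13 wfdc2 unigenes and 2 of 3 cst3 unigenes were, where 1.99% of all unigenes were. Summed wfdc2 was 10.4-fold (9.87 to 11) higher in ovary below 23700 and 6.66-fold (6.08 to 7.3) from there on. Summed cst3 was 13.8-fold (13.3 to 14.3) and 11.8-fold (11.3 to 12.3) higher. These values come from the same reads by which the symbols were chosen, and for cst3 below 23700 they rest on Unigene_14220. Set against the median of its own range, Unigene_14220 of cst3 was 7.12-fold higher in ovary and Unigene_67648 was 36-fold higher, although their plain folds were similar. By that measure Unigene_18429 of wfdc2 was 2.83-fold higher, and 19 wfdc2 unigenes were at least 4-fold higher, beside 7.74% of all unigenes.

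**Figure D4:**
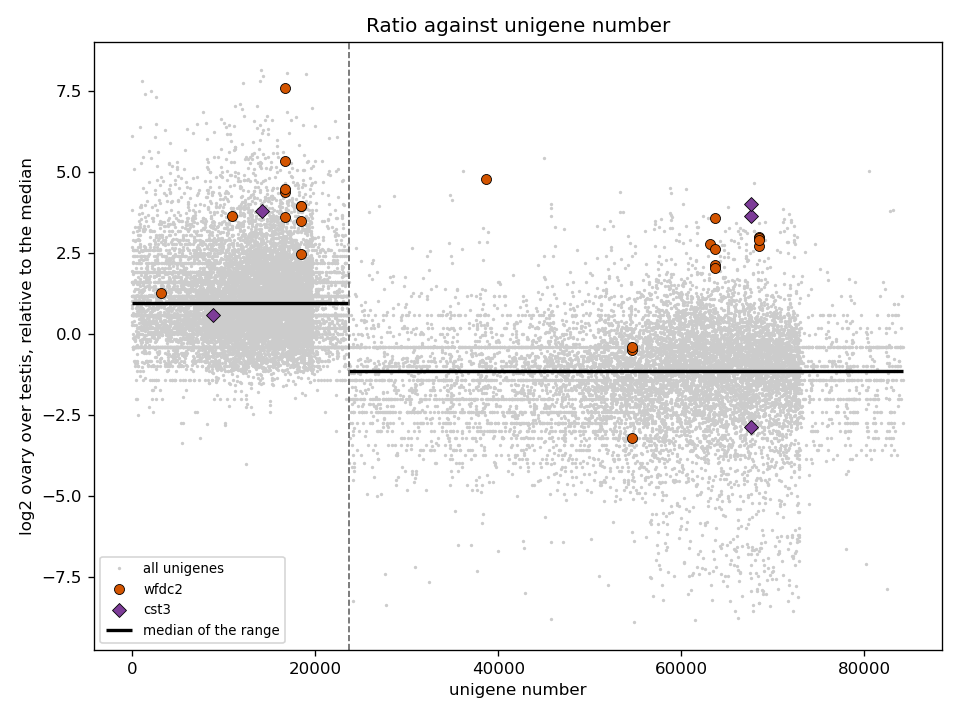
Log2 ratio of ovary over testis, relative to the median of all unigenes, against the unigene number, for all unigenes (grey points), wfdc2 (circles) and cst3 (diamonds), with the median of each number range as a black bar and 23700 as a dashed line. Members lie above the bar on both sides of the line, except Unigene_54568, Unigene_67649 and Unigene_8805.

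The authors' own p-values set the members apart in another way. A p under 0.05 is given for 4 wfdc2 unigenes in the authors' deposited table, where 0.627% of all unigenes are higher in ovary with such a p. These are Unigene_16742 at 0.00671, Unigene_38669 at 0.0396, Unigene_16741 at 0.0466 and Unigene_16736 at 0.0475, per the authors' deposited table. The authors' list for the ovary holds Unigene_16742 alone of the 29 members. For cst3 the authors' deposited table gives 0.963 for Unigene_14220, 0.905 for Unigene_67647 and 0.578 for Unigene_67648, at log2 changes of testis over ovary of -4.63, -4.45 and -4.85. In the same direction, the authors' deposited table gives Unigene_10955 of wfdc2 a similar log2 change of -4.47 with a p of 0.0853. In the authors' deposited table as a whole, unigenes with a log2 change between -5 and -4 have a median p of 0.134 under 1000 ovary units (382 unigenes), 0.117 from 1000 to under 10000 (177 unigenes) and 0.508 from 10000 on (59 unigenes). How these p-values were computed is not given in the sources used here, and none is used as a test of the members.

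By summed values in the 2 libraries, the symbol most like wfdc2 was ccna1, which encodes cyclin A1 and held 24498 ovary reads and 1824 testis reads. Its distance was 0.0859 on the log2 scale, measured over the 2 libraries. Next came zpcx, an egg envelope gene, with 26668 ovary and 2214 testis reads, then phc2b, zgc:165518 and zgc:55862 at distances from 0.25 to 0.374. Nearest to cst3 was the egg envelope gene zp2.2, with 102542 ovary reads and 7165 testis reads at a distance of 0.337. The others were zgc:171779, LOC100148225, zp3a.2 and LOC100537499, at distances from 0.707 to 1.9. With 2 libraries, likeness here means similar levels only.

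Other genes of protease inhibitor families lay on both sides of the median. They were listed by symbol, so a listed gene need not encode an active inhibitor. The list holds 46 unigenes of 21 symbols, and 44 unigenes passed the floor, of which 10 lay at least 4-fold toward ovary and 9 at least 4-fold toward testis. These are 22.7% and 20.5% of the 44, beside 12.6% and 15.3% over all unigenes. Its median score was 0.55, and -0.198 when both libraries were scaled to equal total reads. That scaling moves all unigenes by the same amount, so the sign changed but not the place of the list beside all unigenes. With the unigenes of each symbol summed, 16 of 21 symbols (76.2%) were on the ovary side of the median of all unigenes, where 5406 of all 9494 symbols (56.9%) were. Of the other cystatins, cst14a.2 was 2.05-fold (1.73 to 2.43) higher in ovary, from 516 ovary reads and 189 testis reads. For cst14b.1, 87 ovary reads and 72 testis reads gave a fold of 0.906 (0.656 to 1.26). A further unigene with the protein name Cystatin, under another symbol, held 3 ovary reads and 1 testis read.

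Among the remaining genes of the inhibitor list the largest differences went both ways. Both unigenes of fetub, fetuin-B, an inhibitor that in mice keeps the egg coat from hardening early, were ovary-rich, with 49 ovary reads and 2 testis reads in Unigene_6267 and 30 and 1 in Unigene_6268. Summed, fetub was 19.8-fold (6.52 to 97.8) higher in ovary. Spint1b, an inhibitor of membrane serine proteases, was 6.25-fold (4.86 to 8.17) higher in ovary, and serpinb1l4 4.25-fold (4.04 to 4.47) higher. On the testis side, cast, which encodes the calpain inhibitor calpastatin, had a fold of 0.0762 (0.0509 to 0.11), from 31 ovary reads and 305 testis reads over 6 unigenes. Its 3 most uneven unigenes, Unigene_66248, Unigene_66250 and Unigene_66251, held 3, 1 and 6 ovary reads against 121, 48 and 114 testis reads. Serpinf1, with 2 ovary reads and 352 testis reads, is in the authors' testis list alone, so its direction was set by that choice.

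Proteases, among them cathepsins and serine proteases, were listed by symbol in the same way. Of 50 protease unigenes from 24 symbols, 46 passed the floor, 13 lay at least 4-fold toward ovary and 5 at least 4-fold toward testis, with a median score of 0.69. These are 28.3% and 10.9% of the 46, beside 12.6% and 15.3% over all unigenes. With equal total reads the median score was -0.063, again through a shift shared with all unigenes. After summing the unigenes of each symbol, 18 of 24 symbols (75%) were on the ovary side of the median of all unigenes, beside 56.9% of all symbols. Several cathepsins, a group that includes enzymes that cystatins inhibit, were ovary-rich. A cathepsin L-like gene, ctsll, held 10378 ovary reads and 817 testis reads in Unigene_66375 and 5857 and 517 in Unigene_66376. Summed, ctsll was 9.13-fold (8.63 to 9.66) higher in ovary. The cathepsin S genes ctss2.1 and ctss2.2 were 10.6-fold (8.95 to 12.6) and 7.35-fold (6.54 to 8.29) higher, and ctsz, cathepsin Z, 4.89-fold (4.14 to 5.81) higher. Not all cathepsins were so placed. Cathepsin L, ctsla, held 5005 ovary reads and 2071 testis reads and was 1.81-fold (1.72 to 1.91) higher in ovary, whereas ctsf, cathepsin F, had a fold of 0.43 (0.341 to 0.539). Among serine proteases, tmprss4b, a membrane protease, was 10.7-fold (8.63 to 13.4) higher in ovary, from 1283 ovary reads and 90 testis reads. Unigene_56440 of ctso, cathepsin O, had 2 ovary reads and 16 testis reads, but both ctso unigenes together were 2.12-fold (1.57 to 2.9) higher in ovary.

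**Figure D5:**
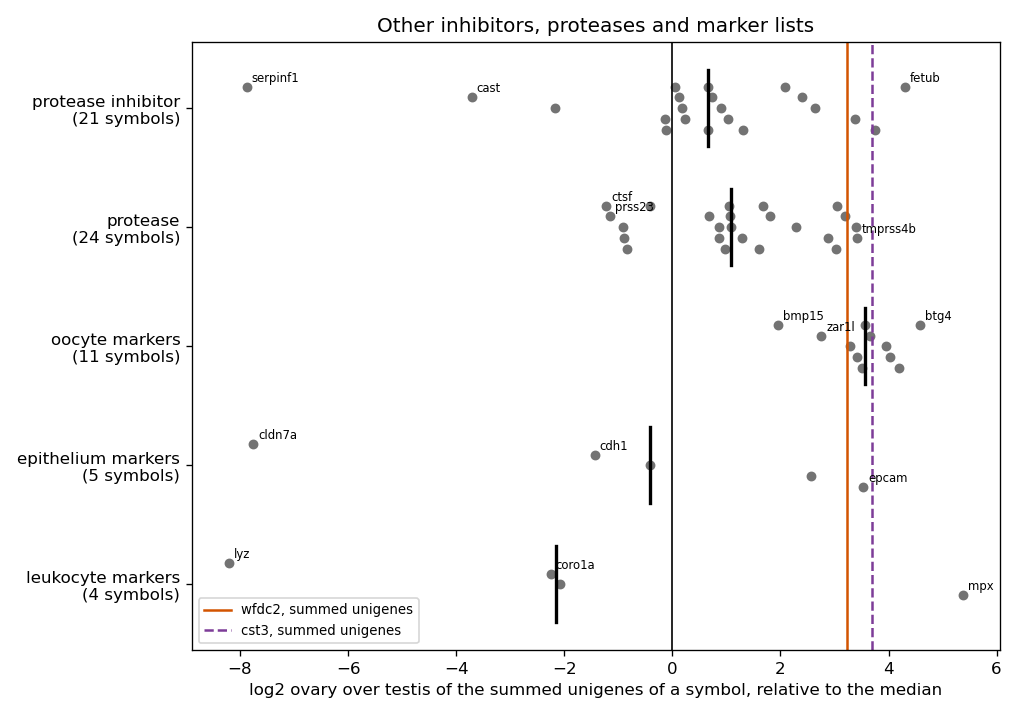
Log2 ratio of ovary over testis, relative to the median of all unigenes, of the summed unigenes of each symbol (points) in 5 lists, with the list median as a black bar and the summed wfdc2 and cst3 as vertical lines. The oocyte markers surround both lines, while the medians of the protease inhibitors (0.66) and proteases (1.08) lie far left of them.

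Markers of cell types that the gonads could hold were set beside the members. The 25 oocyte marker unigenes of 11 symbols held 223599 ovary reads and 13260 testis reads and were 12.6-fold (12.4 to 12.9) higher in ovary, next to 9.4-fold for wfdc2 and 12.9-fold for cst3. Their symbols ranged from bmp15 at 3.9-fold (2.95 to 5.23) to btg4 at 24-fold (22.3 to 26). The epithelium markers, 8 unigenes of 5 symbols, held 9097 ovary reads and 1288 testis reads, or 5.3-fold (5 to 5.62), and did not move together. Epcam, an adhesion protein of epithelia, was 11.6-fold (10.6 to 12.7) higher in ovary, from 7808 ovary reads and 506 testis reads, and cldn7b was 5.91-fold (4.93 to 7.13) higher. In contrast cdh1 had a fold of 0.369 (0.315 to 0.431), cldn7a held 1 ovary read and 162 testis reads and is in the authors' testis list alone, and krt5 held 1 read in each library. Leukocyte markers, 9 unigenes of 4 symbols, held 681 ovary reads and 471 testis reads, and 7 of the 9 lay below the median of all unigenes. Mpx, a myeloid peroxidase, held 610 of those ovary reads and 4 testis reads in Unigene_16938, which is in the authors' ovary list. Without mpx the leukocyte markers held 70 ovary reads and 460 testis reads. Lyz, with 1 ovary read and 222 testis reads among these, is in the authors' testis list alone, so its direction was set by that choice. Coro1a had a fold of 0.21 (0.15 to 0.29) and ptprc a fold of 0.238 (0.136 to 0.399). The part of oocytes, epithelium or leukocytes in the ratios of wfdc2 and cst3 was not tested. Erythrocyte markers were not analysed here. Of the ovary somatic markers fshr alone was analysed, with 1 ovary read and 191 testis reads in a unigene whose protein name is that of the thyrotropin receptor. That unigene is in the authors' testis list alone, so its direction was set by that choice.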

How the data were processed

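An ovary library and a testis library were sequenced, per the labels' protocols, and which aligner, assembler, counter and build were used is not stated in the sources used here. The deposited values are a signal, reads scaled by the authors with a size factor, as the even steps of the values show. A step of 2.31 units in ovary and 1.73 in testis was counted as 1 read, although it could stand for more. Division by the step gave whole reads within 0.01 read for 22632 ovary and 22633 testis values of 22634. The deposited log2 fold change sets B over A, per the file headers, and its p-value comes from the authors, by a test not stated there. The expression table of 22487 unigenes was extended by 147 unigenes found in the testis list alone. No count model was fitted, since 1 library per tissue leaves no spread.

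Ratios, exact intervals and medians were computed with Python 3.11.15, pandas 2.3.3, numpy 2.4.6 and scipy 1.17.1, and the functions were tested on simulated data. The score used a pseudocount of 1 unit, and 4-fold counts a floor of 5 units. Members, gene lists and the naming rule were chosen with earlier results of these data known. The rule named every member, the 5 symbols nearest in summed level, and up to 6 list unigenes with the largest scores and at least 20 units; other list genes were named after their values were seen. Symbols beginning with cstf are cleavage factors and were left out of the cystatins. In the RefSeq annotation of ASM1834038v1, used for names only, the symbol cst3 matched 1 gene and the symbol wfdc2 matched 0. Alternatives changed the scaling, pseudocount, floor, fold limit and unigenes included.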

Additional observations from a re-analysis of the deposited data

How the results depend on the processing

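Of 56 alternatives, 2 turned a direction round. With equal total reads, an alternative added for the lists after seeing the data, the median score was -0.198 for the inhibitor list and -0.063 for the protease list. That scaling moves all unigenes by the same amount, so both lists kept their place beside the median of all unigenes. None of the alternatives run for wfdc2 and cst3 turned a direction round. Both symbols were chosen for large ratios, and their summed log2 ratios were 3.23 and 3.69. The scalings that move all unigenes alike placed the reference between 0 and 1.58, where the main one was 0.83. Changes of that size could not turn either direction, so this outcome is no support for it. In all, 30 left the value about where it was, within its interval, within 0.1 for a median score or within 1.5 times for a count. The scale of the folds depends on the reference chosen. Summed wfdc2 was 16.7-fold higher in ovary as deposited, 5.6-fold with equal total reads, 6.09-fold against the medians of the number ranges and 8.26-fold without its most read unigene, which was an alternative added after seeing the data. Summed cst3 was 23-fold, 7.71-fold, 9.94-fold and 11.7-fold in the same order. The median score of wfdc2 was 3.1 with a pseudocount of 10, 3.23 over unigenes with at least 20 units, 3.78 as deposited, 2.21 with equal total reads and 3.26 against the number ranges. That of cst3 was 3.89 with a pseudocount of 10, 4.45 as deposited, 2.88 with equal total reads and 2.94 against the number ranges. At least 8-fold higher in ovary were 11 wfdc2 unigenes and 3 cst3 unigenes, and with equal total reads 15 wfdc2 unigenes were at least 4-fold higher. The share of all unigenes under these settings is not given here, so these counts show only how the member counts depend on the setting. The median score of the inhibitor list was 1.38 as deposited, 0.401 against the number ranges and 0.66 with unigenes of a symbol summed, and that of the protease list 1.51, 0.47 and 1.08. Members with under 20 reads, such as Unigene_54568, Unigene_54569 and the testis value of Unigene_16742, are limited by depth. No paired analysis was possible because each tissue has 1 library.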
